A study of Mus musculus with 4 samples.

Results

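The phagocyte NADPH oxidase genes were followed in RNA sequencing of LPS-treated mouse microglial cells with and without a knockdown of SIX2. The 6 genes were Cybb, Cyba, Ncf1, Ncf4, Rac1 and Rac2, taken by symbol from 55401 genes with counts, of which 24473 also had FPKM values (fragments scaled to gene length and library size). All 6 were expressed well enough to be tested. The cells were BV-2, a mouse microglial line immortalised with a retrovirus, and the cells of every library had been exposed for 24 h to 100 ng/mL of lipopolysaccharide (LPS, a bacterial cell wall component). The 2 control libraries are called wild type in the labels and carry the titles sh c1 and sh c2. The labels do not say whether these controls carry a control hairpin RNA, and effects of a hairpin itself were not tested. The other 2 libraries, titled sh s1 and sh s2, had this homeobox transcription factor knocked down, under the label shSIX2. No cells without LPS were analysed here, and nothing in the labels says whether a group's libraries were separate cultures, so p-values reflect the spread between libraries alone, and that spread may be technical.

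The libraries held 61.0 to 75.7 M counts, about 15.2 to 18.9 M fragments at 4 counts per fragment. The targeted gene, Six2 (ENSMUSG00000024134), was counted 0 times in each library. A count of 0 allows up to 3 fragments, or 0.159 to 0.197 CPM (counts relative to a library's total), which covers counting error only, so the knockdown could not be checked on its target. Of 12 microglia and macrophage markers 11 were tested, and Cd68, a lysosomal protein of macrophages, had 650, 666, 654 and 628 CPM (control 1 and 2, knockdown 1 and 2, the order used throughout). Tyrobp, a microglial signalling adaptor, had 303, 316, 303 and 310 CPM. P2ry12, a marker of resting microglia, had 24, 4, 0 and 0 counts, so that marker was at or near 0 in this line.

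The phagocyte oxidase transfers electrons from NADPH inside the cell to oxygen outside it or in the phagosome, making superoxide. Its membrane core, flavocytochrome b558, is a dimer of the catalytic chain gp91phox, also named NOX2, and p22phox, encoded by Cybb and Cyba. In resting cells the cytosolic subunits, among them the organiser p47phox (Ncf1) and p40phox (Ncf4), are kept apart from the core, and on stimulation they dock on the core together with a Rac GTPase. Inherited loss of the membrane or cytosolic phox subunits causes chronic granulomatous disease, and in microglia the enzyme is the main source of the oxidative burst.

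Promoter windows are shown so that the letters before the start sites of Cybb and Cyba, whose products form 1 dimer, can be set side by side. RefSeq promoter windows on GRCm38.p6 matched 3 of the 6 genes by symbol. Each window runs from 250 bases before the start site to 30 bases from it onward, 280 bases read along the gene's minus strand: chrX:9469295-9469574 for Cybb, chr8:122432911-122433190 for Cyba and chr5:134229596-134229875 for Ncf1. The Cybb window lies inside the annotated gene span, which holds a longer transcript that begins upstream. Capitals mark 3 motifs searched on both strands, the PU.1-type GAGGAA, the IRF-type pair of GAAA copies with 2 bases of any kind between them and the CCAAT box.
Cybb: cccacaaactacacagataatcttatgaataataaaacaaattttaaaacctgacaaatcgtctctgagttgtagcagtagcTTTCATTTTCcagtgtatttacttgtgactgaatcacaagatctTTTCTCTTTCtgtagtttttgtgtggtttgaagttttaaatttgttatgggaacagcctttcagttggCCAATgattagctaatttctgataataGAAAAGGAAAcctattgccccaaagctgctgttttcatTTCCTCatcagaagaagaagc
Cyba: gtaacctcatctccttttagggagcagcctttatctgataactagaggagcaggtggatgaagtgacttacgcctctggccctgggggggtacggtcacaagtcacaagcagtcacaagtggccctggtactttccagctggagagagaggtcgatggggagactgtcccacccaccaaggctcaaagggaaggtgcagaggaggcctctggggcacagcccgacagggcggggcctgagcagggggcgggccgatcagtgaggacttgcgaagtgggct
Ncf1: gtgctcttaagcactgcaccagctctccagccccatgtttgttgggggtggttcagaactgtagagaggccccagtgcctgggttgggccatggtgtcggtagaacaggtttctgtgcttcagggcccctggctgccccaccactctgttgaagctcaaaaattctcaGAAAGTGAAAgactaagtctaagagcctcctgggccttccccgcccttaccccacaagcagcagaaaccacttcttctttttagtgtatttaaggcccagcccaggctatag

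The Cybb window held 3 IRF-type matches, beginning at -168, -124 and -29 from the start site, with CCAAT at -56. Its GAGGAA match, read on the other strand as TTCCTC, began 9 bases after the start site, and an AP-1 motif (TGANTCA, not in capitals) began at -139. The Cyba window held none of the capitalised motifs and a pair of Sp1-type GC boxes (GGGCGG) at -24 and -6. The Ncf1 window held 1 IRF-type match at -82 and 1 GC box, as CCGCCC, at -42. No match overlapped another. Over 32817 RefSeq windows of this length, 26.0% held GAGGAA, 3.3% the IRF-type motif, 36.1% CCAAT, 7.5% TGANTCA and 34.7% the GC box. At least 3 IRF-type matches, the number in the Cybb window itself, were found in 5 windows (0.0152%), that of Cybb included. These are matches of letters and show no binding.

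Knockdown and control libraries were compared with edgeR's quasi-likelihood test over 15733 genes, with Benjamini-Hochberg adjustment over all of them. Cybb fell to 0.636 of its control level and was the 1 gene of the 6 that passed the adjusted p threshold of 0.05. Genes passing in the lower direction made up 0.547% of all genes tested (86 genes), and 0.953% (150 genes) passed in either direction. Ncf4 and Rac2 were lower at an unadjusted p under 0.05 but did not pass after adjustment, and Cyba, Ncf1 and Rac1 did not pass at either threshold. At an unadjusted p under 0.05, 6.70% of all genes tested were lower (1054 genes) and 7.52% higher (1183 genes). In 5 of the 6 genes both knockdown libraries were below both controls, a pattern shown by 23.8% of all genes tested. The exception was Rac1, with both knockdown libraries above both controls. The median log2 fold change of the 6 genes was -0.16, against -0.01 over all genes tested. In these bulk libraries fewer cells of a type and less RNA per cell cannot be told apart. The number of genes passing fell from 150 to 62 without control 1, 41 without control 2 and 42 without knockdown 2, and was 112 without knockdown 1.

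Cybb (ENSMUSG00000015340, chromosome X, 9435252 to 9487771, minus strand, GRCm38) encodes the catalytic chain, which carries the FAD, the haems and the NADPH site. Its counts were 12996 and 11146 in the controls and 8075 and 7209 in the knockdown libraries. Scaled with TMM factors these were 170, 180, 109 and 114 CPM, so the groups were well apart and the libraries of each group close together. The mean went from 175 ± 6.97 to 111 ± 3.41 CPM (SD, n = 2 each), a log2 fold change of -0.65 ± 0.08 (SE, 95% interval -0.83 to -0.47, adjusted p = 0.0183, edgeR). The interval corresponds to a fold of 0.561 to 0.720. Of the 7298 genes averaging 20 CPM or more, 1.08% had a log2 fold change as low or lower. Over all genes tested the share was 11.7%. The size hardly moved between settings, at -0.69 to -0.61 over 16 alternatives, but the call was kept in 7 of them. Leaving out any of the 4 libraries ended it (adjusted p = 0.0599 and 0.110 without control 1 and 2, 0.0727 and 0.0948 without knockdown 1 and 2, edgeR), as did the robust option off (0.0634), limma on log2 FPKM with 1 or 0.1 added (0.159 and 0.141) and a threshold of 0.01.

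Cyba (ENSMUSG00000006519, chromosome 8, 122424776 to 122432930, minus strand) encodes p22phox, the partner that stabilises the catalytic chain and holds the docking site for p47phox. It had 404 and 395 CPM in the controls and 391 and 364 CPM in the knockdown libraries. Control 2 and knockdown 1 were nearly level, though the groups did not overlap. The log2 fold change was -0.08 ± 0.07 (SE, 95% interval -0.25 to 0.08, adjusted p = 0.669, edgeR). The interval leaves out a fall of the size seen in Cybb and includes no change. The difference between the 2 chains is tested with the ratios to Cybb.

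**Figure D1:**
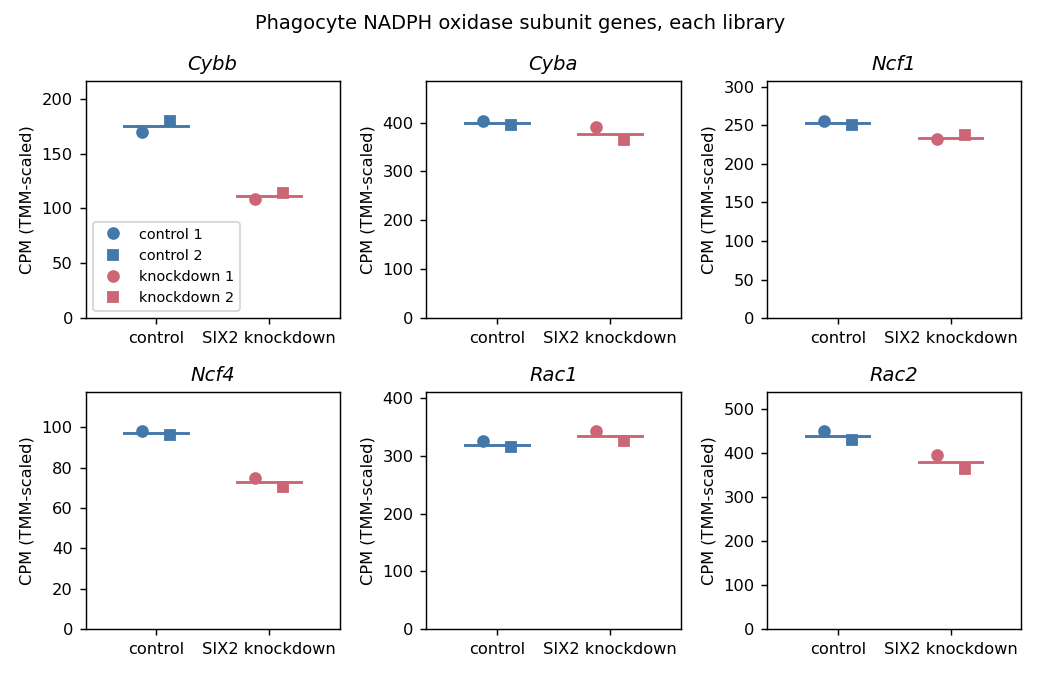
TMM-scaled CPM (y axis, from 0) of the 6 oxidase genes in each library, controls in blue and SIX2 knockdown in red, circles for library 1 and squares for library 2, with a bar at each group mean. Cybb goes from 170 and 180 to 109 and 114 CPM, Ncf4 shows a smaller gap, and Rac1 is the gene whose knockdown libraries lie above its controls.

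Of the cytosolic subunits, Ncf1 (ENSMUSG00000015950, chromosome 5, 134220053 to 134229625, minus strand) encodes p47phox, the organiser that is phosphorylated on activation and brings the others to p22phox. Its libraries held 256, 250, 232 and 237 CPM. Both knockdown libraries were lower by a small margin, with a log2 fold change of -0.11 ± 0.07 (SE, 95% interval -0.27 to 0.05, adjusted p = 0.526, edgeR). Ncf1 shares 408 exon bases with Gtf2ird2 on the opposite strand, which had 360, 448, 534 and 571 counts, few beside the 15009 to 19521 of Ncf1. The sources used here do not say whether counting used the strand, so reads over these bases cannot be told apart.

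Ncf4 (ENSMUSG00000071715, chromosome 15, 78244801 to 78262580, plus strand) encodes p40phox, which binds the phagosomal lipid phosphatidylinositol 3-phosphate and sustains the burst there. Its counts were 7479, 5932, 5551 and 4463, or 98.0, 95.9, 74.9 and 70.5 CPM. The groups did not overlap, and the means were 97.0 ± 1.50 and 72.7 ± 3.16 CPM (SD, n = 2 each), a fold of 0.750. The log2 fold change was -0.42 ± 0.08 (SE, 95% interval -0.61 to -0.22, adjusted p = 0.0897, edgeR), short of the threshold. Over the alternatives it lay between -0.46 and -0.37, with adjusted p from 0.000474 (DESeq2, the 1 alternative in which it passed) to 0.332. Among genes of at least 20 CPM, 3.07% had a log2 fold change as low or lower, and among all genes tested 17.3%.

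Cybc1, which is not among the 6 genes, encodes a chaperone needed for gp91phox and p22phox to mature. It had 29.3, 30.0, 30.1 and 31.8 CPM (log2 fold change 0.06 ± 0.11, adjusted p = 0.861, edgeR).

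The cytosolic genes are set against each other as a ratio of FPKM, with no test. The ratio of Ncf4 to Ncf1 was 0.695, 0.696, 0.586 and 0.539, so both knockdown libraries were below both controls.

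Of the Rac GTPases, Rac2 (ENSMUSG00000033220, chromosome 15, 78559167 to 78572783, minus strand) is the form largely restricted to blood cells. It had 450, 429, 397 and 363 CPM, with means of 440 ± 15.2 and 380 ± 24.0 CPM (SD, n = 2 each). The groups did not overlap, but the log2 fold change of -0.21 ± 0.07 did not pass (SE, 95% interval -0.39 to -0.03, adjusted p = 0.273, edgeR). Rac1 (ENSMUSG00000001847, chromosome 5, 143503634 to 143528036, minus strand), the form present in nearly all cell types, had 326, 315, 343 and 326 CPM. Control 1 and knockdown 2 were equal to 3 digits, and the log2 fold change was 0.06 ± 0.07 (SE, 95% interval -0.10 to 0.22, adjusted p = 0.750, edgeR). Rac1 shares 2309 exon bases with Daglb on the opposite strand, which had 2695 to 3628 counts against 19491 to 25389 for Rac1. The ratio of Rac2 to Rac1 FPKM was 2.00, 1.97, 1.68 and 1.61. Rac3, the remaining Rac gene, had 20 to 42 counts in any library.

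**Figure D2:**
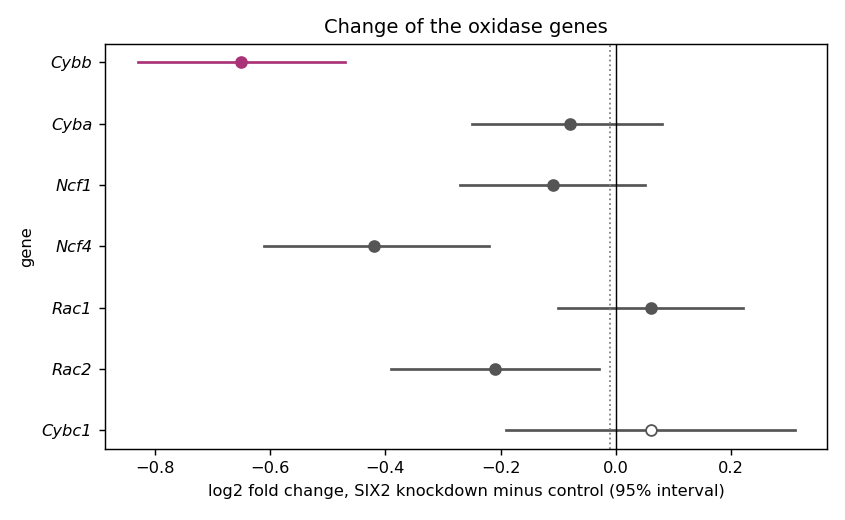
Log2 fold change of each oxidase gene, knockdown minus control (x axis), as a point with its 95% interval from edgeR; filled points are the 6 genes, the open point is Cybc1, magenta marks an adjusted p under 0.05 and the dotted line the median of all genes tested. Cybb at -0.65 is the 1 gene in magenta, Ncf4 at -0.42 and Rac2 at -0.21 have intervals below 0, and the other 3 of the 6 have intervals that include 0.

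Whether Cybb differed from its partners was tested on the log2 ratio of each gene to Cybb within a library, with limma over 15732 genes. The ratio passed as higher in the knockdown libraries for 4 of the other 5 genes (adjusted p under 0.05, limma), while that of Ncf4 to Cybb did not pass. Cybb was singled out with its fall known and is the divisor of every ratio. Neither the count nor the adjusted p-values are therefore independent of that fall. The library error of Cybb enters every ratio, while limma shares spread over genes as if they were independent, so these p-values may be too small. Of all genes tested, 56.7% also had a ratio to Cybb that passed as higher. The FPKM ratio of Cyba to Cybb was 13.3 and 12.2 in the controls and 17.9 in knockdown 2, with a knockdown mean of 19.0, a log2 change of 0.57 ± 0.10 (SE, 95% interval 0.34 to 0.80, adjusted p = 0.000729, limma). The ratio of Rac1 to Cybb, at 2.47, 2.26, 4.06 and 3.70, changed most of the 5, by 0.72 ± 0.10 (adjusted p = 0.000252, limma).

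The ratio of Ncf1 to Cybb was 2.38, 2.20, 3.37 and 3.30, a log2 change of 0.54 ± 0.10 (adjusted p = 0.000789, limma). The ratio of Rac2 to Cybb was 4.95, 4.45, 6.81 and 5.96, a log2 change of 0.44 ± 0.11 (adjusted p = 0.00418, limma). For Ncf4 the ratio was 1.65, 1.53, 1.98 and 1.78, and its log2 change of 0.24 ± 0.12 had an interval from -0.02 to 0.49 (adjusted p = 0.101, limma). This does not show that Ncf4 and Cybb changed alike, only that a difference was not resolved with 2 libraries a group. Rac2 lost its call without control 2 (adjusted p = 0.0515, limma) and without knockdown 1 (0.0815), which leaves 3 of the 5 genes. Outside the 6 genes, the ratio of Cybc1 to Cybb changed by 0.71 ± 0.13 (adjusted p = 0.000699, limma).

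**Figure D3:**
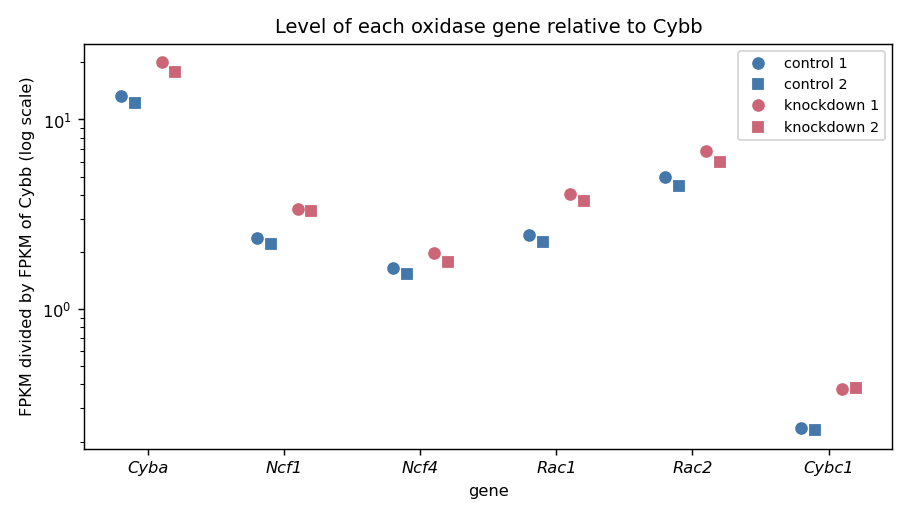
FPKM of each oxidase gene divided by that of Cybb in the same library (y axis, log scale), controls in blue and knockdown in red, circles for library 1 and squares for library 2. The red points lie above the blue ones for every gene plotted, with the narrowest gap for Ncf4 (1.65 and 1.53 against 1.98 and 1.78).

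Per length of gene, the oxidase genes stood at unequal levels in these cells. The lengths behind the FPKM values tracked the merged exons of all annotated transcripts (5808 bases for Cybb, 1039 for Cyba). The order between genes depends on these lengths. In CPM, Ncf4 at 70.5 to 98.0 was below Cybb at 109 to 180. Cyba was the most abundant, at 310 to 352 FPKM over the 4 libraries, followed by Rac2 at 104 to 131, Rac1 at 64.1 to 67.8, Ncf1 at 56.3 to 63.2, Ncf4 at 30.9 to 43.9 and Cybb at 16.7 to 28.4 FPKM. The ranges of neighbours in this order did not overlap over all 4 libraries. Ncf4 in knockdown 2 (30.9 FPKM) came close to Cybb in control 2 (28.4 FPKM). Cybb was thus the lowest of the 6 in every library, with 26.5, 28.4, 16.7 and 17.4 FPKM. Its share of the summed FPKM of the 6 genes was 3.89% and 4.22% in the controls and 2.68% and 2.98% in the knockdown libraries. The summed FPKM was 683, 672, 622 and 584, most of it Cyba.

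The genes nearest to Cybb in profile were sought among 7025 officially named genes averaging 20 CPM or more, by the root-mean-square difference of log2 CPM centred over the 4 libraries. The nearest was Adgre1, the macrophage surface receptor F4/80, at a difference of 0.016, with 255, 272, 166 and 176 CPM. Next came Tubb2a, a beta-tubulin, at 0.019 and Fcgr4, an activating receptor for IgG, at 0.028. Coro1b, an actin-binding coronin, followed at 0.037 and Ets1, an ETS-family transcription factor, at 0.041. These 5 were chosen for this likeness, so their own fold changes describe it: -0.63, -0.67, -0.63, -0.65 and -0.68 on the log2 scale. The other oxidase genes were farther away. Ncf4 ranked 115 at a difference of 0.136 and Rac2 ranked 618 at 0.237. Ncf1 ranked 1183, Cyba 1593 and Rac1 3780.

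**Figure D4:**
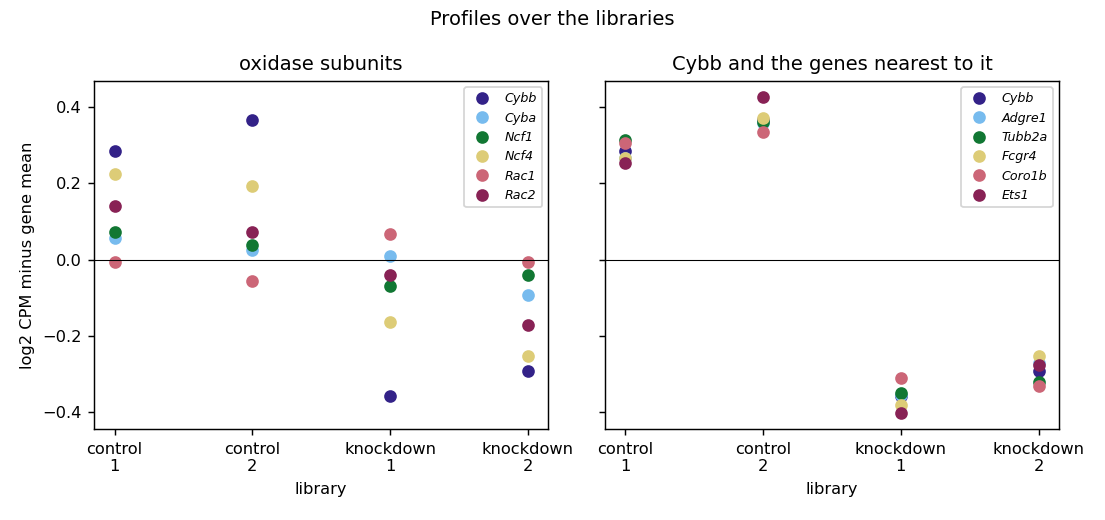
Log2 CPM minus the gene's mean (y axis) in each library (x axis) for the 6 oxidase genes, left, and for Cybb with the 5 genes nearest to it in profile, right. On the left the genes spread from Cybb, with the widest gap between groups, to Rac1, whose order is the opposite; on the right the 6 genes were chosen to lie close together.

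Other NADPH oxidases were scarcely detected. Of 9 genes of the Nox and Duox families and their partners, 4 could be tested and 0 passed (edgeR; 0 also at an unadjusted p under 0.05). Nox4, Duox1, Duox2 and Duoxa2 had 0 counts in all 4 libraries. Nox1, a colonic form of the catalytic chain, had 23, 8, 23 and 27 counts, and Noxa1, an activator subunit of Nox1, had 14, 4, 15 and 0. The summed level of the list was 0.852, 0.420, 0.729 and 1.03 CPM, against 109 to 180 CPM for Cybb alone.

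Genes that load, activate or help assemble the oxidase showed few calls. The counts of each list that follows are to be read beside the shares over all genes tested. By the adjusted p these were 0.547% lower and 0.953% in either direction (edgeR). At an unadjusted p under 0.05 they were 6.70% lower and 7.52% higher. Of 16 regulators of Rac and Rap1, 0 passed in either direction (edgeR; 1 higher and 2 lower at an unadjusted p under 0.05), with a median log2 fold change of -0.01. The GDP dissociation inhibitors, which hold Rac in the cytosol, were the most abundant: Arhgdia had 1075, 1002, 1190 and 1064 CPM and Arhgdib 583, 603, 565 and 553 CPM. Of 19 kinases, lipases and other activating enzymes 18 were tested, and Pak1 alone passed (edgeR; 3 higher and 1 lower at an unadjusted p under 0.05). Pak1, a kinase that Rac binds and that can phosphorylate p47phox, rose from 15.0 and 16.4 to 30.1 and 30.3 CPM (log2 fold change 0.95 ± 0.12, adjusted p = 0.0237, edgeR). Akt1, a kinase that phosphorylates p47phox, had 428, 405, 429 and 390 CPM, and the phospholipase Plcg2 had 271, 263, 310 and 293 CPM. Leaving out any 1 library ended the call of Pak1 (adjusted p = 0.0851 to 0.134, edgeR).

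Of 11 genes for assembly, chaperoning and charge compensation, 0 passed (edgeR; 0 higher and 3 lower at an unadjusted p under 0.05). The list shares S100a8 and S100a9 with the neutrophil markers given further on. P4hb, a protein disulfide isomerase, had 636, 663, 548 and 557 CPM (adjusted p = 0.189, edgeR), and Coro1a, a coronin that binds the cytosolic complex, had 616, 531, 612 and 514 CPM. Of 16 transcription factors known to act on Cybb, 13 were tested and 0 passed (edgeR; 1 higher and 2 lower at an unadjusted p under 0.05). Their median log2 fold change was -0.12, with 10 below 0 and 3 above. Spi1, which encodes the macrophage factor PU.1, had 203, 191, 199 and 188 CPM, with overlapping groups. Cebpb, an LPS-inducible bZIP factor, had 208, 224, 195 and 147 CPM (log2 fold change -0.33 ± 0.14, adjusted p = 0.392, edgeR), its lowest value being knockdown 2. Of the IRF factors, named because the Cybb window holds IRF-type letters, Irf1 had 23.7, 26.3, 18.9 and 19.2 CPM (adjusted p = 0.227, edgeR). Irf2 had 26.4, 27.5, 23.3 and 20.3 CPM (adjusted p = 0.337, edgeR). Irf1 and Irf2 were the 2 factors lower at an unadjusted p under 0.05. The 1 higher was Crebbp, with 27.4, 28.5, 35.6 and 34.0 CPM (log2 fold change 0.31, adjusted p = 0.251, edgeR). Irf8 had 88.0, 86.6, 82.2 and 75.3 CPM (adjusted p = 0.492, edgeR). The IRF factors and Crebbp were chosen after their values were seen, and none passed. Whether any of them acts on Cybb in these cells was not tested.

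Of 16 receptors that trigger the burst, 15 were tested and 1 passed. All 15 had a log2 fold change below 0, with a median of -0.40. Over all genes 8034 of 15733 were below 0. As the list was chosen with earlier results of these data known, its shared direction is not independent of them. In 10 of the 15 both knockdown libraries were below both controls, a pattern shown by 23.8% of all genes tested. In the other 5, such as Fcgr3 and Itgam, the groups overlapped. Fcgr1, the high-affinity IgG receptor, fell from 110 and 124 to 78.8 and 80.2 CPM (log2 fold change -0.56 ± 0.09, adjusted p = 0.0475, edgeR). At an unadjusted p under 0.05, 8 of the 15 were lower and 0 higher, against 6.70% and 7.52% of all genes. Leaving out any 1 library ended the call of Fcgr1 (adjusted p = 0.0884 to 0.219, edgeR). Fcer1g, the signalling chain of Fc receptors, had 276, 291, 257 and 256 CPM (adjusted p = 0.410, edgeR), and Tlr2, a receptor for bacterial lipopeptides, 237, 241, 198 and 205 CPM (adjusted p = 0.186). Tlr4, the LPS receptor, had 30.9, 32.6, 4.06 and 32.5 CPM, so knockdown 1 stood apart from the other 3 libraries; it was chosen after its values were seen.

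Among 13 tested genes that handle superoxide, peroxide or nitric oxide, 2 fell and 0 rose by the adjusted p, and the median log2 fold change was -0.02. At an unadjusted p under 0.05, 2 were lower and 3 higher: Gpx1, Sod1 and Txnrd1, named after their values were seen, had log2 fold changes of 0.43, 0.24 and 0.22. Nos2, the inducible nitric oxide synthase, whose product reacts with superoxide, had 68.9, 55.9, 27.7 and 23.4 CPM (log2 fold change -1.29 ± 0.14, adjusted p = 0.0159, edgeR). Sod2, the mitochondrial superoxide dismutase, had 370, 397, 279 and 276 CPM (-0.47 ± 0.07, adjusted p = 0.0428). The abundant peroxiredoxin Prdx1 had 1120, 1077, 1045 and 1122 CPM and the thioredoxin Txn1 400, 426, 400 and 423 CPM, with overlapping groups. A list of 8 genes covered the pentose phosphate pathway and other reactions tied to NADPH, the oxidase's fuel. Not all of them make NADPH in the cytosol. Me1 alone passed: this malic enzyme rose from 28.8 and 27.4 to 42.7 and 46.7 CPM (0.67 ± 0.10, adjusted p = 0.0475, edgeR). G6pdx, the entry enzyme of the pentose phosphate pathway, had 369, 360, 370 and 360 CPM, and Taldo1, of the same pathway, 408, 397, 355 and 345 CPM (adjusted p = 0.237). At an unadjusted p under 0.05, 1 of the 8 was higher and 2 were lower. Leaving out any 1 library ended the calls of Sod2 (adjusted p = 0.0998 to 0.230, edgeR) and Me1 (0.0968 to 0.245). Nos2 lost its call without control 1 (0.0599) and without knockdown 2 (0.0985).

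**Figure D5:**
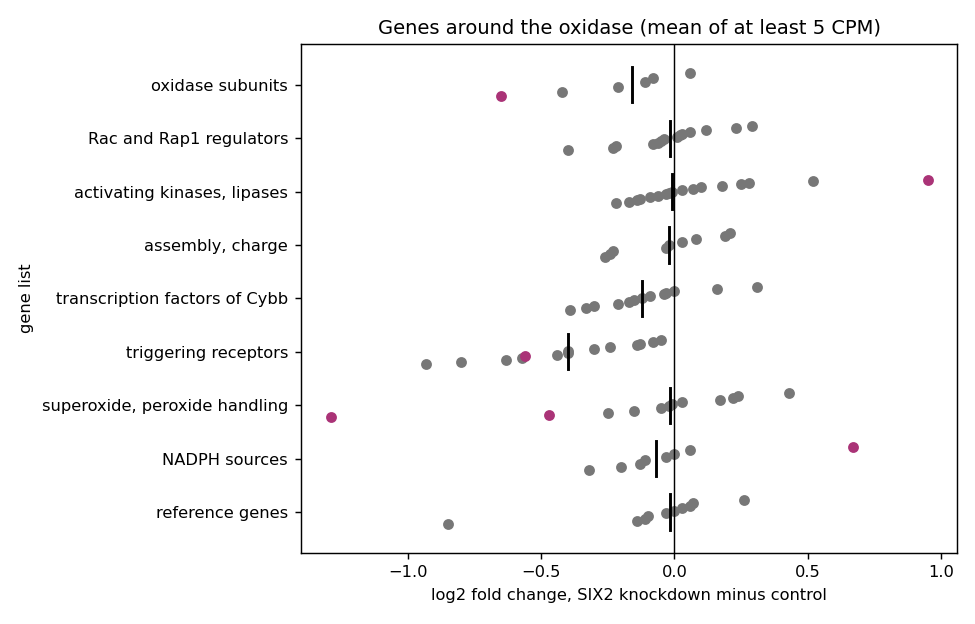
Log2 fold change, knockdown minus control (x axis), of the genes in each list (y axis) that had a mean of at least 5 CPM, with a bar at the median of the plotted genes and magenta for an adjusted p under 0.05. The triggering receptors all lie below 0, whereas the other lists lie on both sides of it. All lists were chosen with earlier results of these data known.

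Of 10 reference genes 0 passed (edgeR; 1 higher and 0 lower at an unadjusted p under 0.05), with a median log2 fold change of -0.02. Gapdh, chosen after its values were seen, ranged from 38.2 to 278 CPM over the libraries, with overlapping groups.

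Marker levels moved with the groups in part. Of the 11 microglia and macrophage markers tested, 3 fell (Aif1, Csf1r and Adgre1) and 0 rose, by edgeR's adjusted p, and each of these calls was lost on leaving out any 1 library (adjusted p = 0.0599 to 0.227). At an unadjusted p under 0.05, 4 were lower and 2 higher, against 6.70% and 7.52% of all genes tested. By the adjusted p, 0.547% of all genes tested were lower. The list's summed level was 1914 to 1966 CPM in control and 1729 to 1780 CPM in knockdown libraries. Neutrophils also express the oxidase at high levels. Of 12 neutrophil markers 10 were tested and 0 passed (edgeR; 3 lower and 0 higher at an unadjusted p under 0.05), and their summed level was 37.1 to 41.7 CPM in control and 17.3 to 26.0 CPM in knockdown libraries. Csf3r, the G-CSF receptor, was the highest of them, with 19.9, 21.9, 17.4 and 15.2 CPM, while S100a9 had 4.64, 3.07, 1.57 and 0 CPM. Elane and Ly6g had at most 12 counts in every library.

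Markers of other brain cells were present in traces whose summed levels were lower in the knockdown libraries, most of all in knockdown 2. Single markers did not all follow the sums. Aldh1l1 had 4, 8, 0 and 21 counts, Rbfox3 had 22, 4, 27 and 0, and Mog had 8, 8, 16 and 0. The summed level of 6 astrocyte markers was 6.94 to 8.05 CPM in control and 2.13 to 4.04 CPM in knockdown libraries, led by Slc1a2 and Gja1. That of 6 neuron markers was 6.63 to 6.72 CPM in control, 3.44 CPM in knockdown 1 and 0 in knockdown 2, with Snap25 at 2.04, 2.80, 0.945 and 0 CPM and Nefl at 1.10 CPM or less. Of 6 oligodendrocyte markers, Mobp had 4.00, 2.78, 1.42 and 0 CPM, and Olig2 and Sox10 had 12 counts or fewer in every library. Of these markers 5, 6 and 3 were tested and 0 passed (edgeR; 1 astrocyte marker was lower at an unadjusted p under 0.05, and 0 of the others). The part of these traces in the result for Cybb (109 and 114 CPM in knockdown 1 and 2) was not tested.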

How the data were processed

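Polyadenylated RNA of 4 BV-2 libraries was sequenced from dUTP-marked libraries, per the labels' protocols. The deposited estimated counts are whole numbers per gene, not normalised, and per the file headers the authors' FPKM values are scaled to gene length and library size. Bowtie 0.12.2 and build mm8 are named per the submitters' processing notes; the sources used here name no counting program. Coordinates equalled GENCODE M21 (GRCm38) for 21876 of 24422 genes. Low counts peak at multiples of 4, so 1 fragment was taken as 4 counts. A further 12 columns matched no labelled sample and were not used.

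The main test was run with edgeR 4.0.16 in R 4.3.3 (filterByExpr, TMM, robust quasi-likelihood fit, two-sided, Benjamini-Hochberg adjusted p under 0.05). CPM are TMM-scaled. Ratios to Cybb were tested with limma 3.58.1 on log2 CPM (prior count 2), without a covariate. Fits were tested on simulated counts. Alternatives included DESeq2 1.42.0, limma-voom, FPKM, other filters and factors, and leaving out each library.

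The 6 genes and all lists were chosen with earlier results of these data known. By rule the text names these 6, other oxidase genes, each passing gene of a functional list, the 2 members of each list with the highest FPKM (markers included) and the 5 genes nearest to Cybb. Aif1, Csf1r, Gapdh, Gpx1, Sod1, Txnrd1, Fcgr3, Itgam, Irf1, Irf2, Irf8, Tlr4 and Crebbp fall outside it. So do Aldh1l1, Rbfox3, Mog and genes named for being at or near 0. A few genes that the rule would name are not reported here.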

Additional observations from a re-analysis of the deposited data

How the results depend on the processing

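Cybb stayed lower in all 16 alternatives and passed in 7. The genes changed, 150 as reported, numbered 801 with DESeq2, 238 with limma-voom, 297 with no filter, 7 with the robust option off or at an adjusted p of 0.01, and 3 and 4 with limma on log2 FPKM with 1 and 0.1 added; leaving out 1 library gave 41 to 112. Of the 6 oxidase genes, DESeq2 called 2 (Cybb and Ncf4), and 0 were called with either FPKM setting, without the robust option, at 0.01, or without any 1 library (0 to 0). The Cybb log2 fold change without a call was -0.66 and -0.68 (FPKM), -0.65 (robust option off, and at 0.01) and -0.69 to -0.61 without 1 library. The cause was not tested.

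The deviations of same-numbered libraries had a correlation of 0.05 over 15733 genes. No pairing was seen over all genes, which does not exclude one for some of them. Cybb was higher in library 2 of both groups (180 and 114 CPM, against 170 and 109) and Rac2 lower (429 and 363, against 450 and 397). Cyba, Ncf4 and Rac1 were also lower in library 2 of both groups. Ncf1 alone differed between the groups, being lower in control 2 but higher in knockdown 2. With a replicate block 0 genes passed (edgeR; 2055 at an unadjusted p under 0.05), 0 of the 6 among them, and Cybb was at -0.65 (adjusted p = 0.0771); 5 of 5 ratios to Cybb passed, Ncf4 at 0.0496. The other 5 oxidase genes kept their direction in all 16 alternatives. With 2 libraries a group an exact permutation test cannot go below p = 0.333, so calls rest on spread shared across genes. Counting error is small for the 6 oxidase genes, and it limits the trace markers and the other Nox genes.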
